A study of Mus musculus with 2 samples.

Results

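The genes described here are those of the urea cycle and of amino acid breakdown, 41 genes listed by name from these pathways. The list was drawn up with earlier results of these arrays known. They were read on 2 arrays hybridized with pooled liver RNA of male mice that lack apolipoprotein E on a C57BL/6J background, with an age of 2 months in the labels. The control array carries mice given a semipurified Western diet, and the oleanolic acid array mice given that diet with 0.01% oleanolic acid (10 mg per kg body weight per day), each for 11 weeks; oleanolic acid is a plant triterpenoid. Every animal carries the apolipoprotein E deficiency and eats the Western diet, so neither array shows a wild-type liver or an ordinary diet. Each diet is represented by 1 pool of animals on 1 array, and the number of mice per pool is not given in the sources used here. No value below therefore has a biological replicate, p-values were not computed, and each difference is between these 2 arrays alone.

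Of the 41 genes, 37 had at least 1 probe set annotated with their symbol alone, out of 12393 such genes on the array, and these 37 genes had 49 probe sets. A probe set was counted as measured where its signal reached the median of its array on at least 1 array (61.5 signal units for control and 59.3 for oleanolic acid). This held for 48 probe sets and 36 genes. Kynu, the kynureninase gene of tryptophan breakdown, was dim on both arrays, with 21.6 and 41.0 units (control first, here and below), and has no gene value here. Ass1, Gls2, Amt and Sds had no probe set with a single symbol of theirs and were not analysed here. The error given with a log2 ratio (oleanolic acid over control) is a probe set SD. For the 9 genes with 2 or more measured probe sets it is the SD between them, and for the 27 genes with 1 it is the pooled SD between probe sets of other genes in the same of 4 equal bands of signal (0.13 in the brightest band, 0.17 in the next, 0.25 in the one below). It reflects how far probes of a gene disagree and holds nothing of the variation between mice or between repeated arrays.

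The liver is the main site where surplus amino acids are taken apart. Aminotransferases move their nitrogen to glutamate and aspartate, glutamate dehydrogenase and other enzymes release part of it as ammonia, and the urea cycle joins that ammonia with the nitrogen of aspartate to make urea. The carbon skeletons leave by separate routes for the aromatic, branched-chain, sulfur-containing and remaining amino acids and enter the tricarboxylic acid cycle, glucose or ketone body synthesis. Enzymes of the urea cycle and of histidine and serine breakdown are typically most abundant in hepatocytes near the portal vein, and their genes respond to glucagon, glucocorticoids and dietary protein.

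The 4 members that lay furthest from a ratio of 0 were Hal, Agxt and Cbs, which were higher in the oleanolic acid array, and Got1, which was lower. Their annotated upstream regions are shown because the results below turn on these genes. Each is the 250 bases before the gene's start in RefSeq (GRCm38.p6), read 5′ to 3′ on the gene's strand, upstream and non-coding by the annotation. They lie at chr10:93488518-93488767 on the plus strand for Hal, chr1:93134990-93135239 on the plus strand for Agxt, chr17:31637206-31637455 on the minus strand for Cbs and chr19:43524606-43524855 on the minus strand for Got1. Capitals mark matches, on either strand, to the letters of an E-box (CACGTG, a clock and USF element), a basal promoter element known as the TATA box (TATAAA), the element named CCAAT, a C/EBP-type element (TTGCNNAA), the core of a cyclic AMP response element (TGACG) and the core of a glucocorticoid response element (TGTTCT).
Hal: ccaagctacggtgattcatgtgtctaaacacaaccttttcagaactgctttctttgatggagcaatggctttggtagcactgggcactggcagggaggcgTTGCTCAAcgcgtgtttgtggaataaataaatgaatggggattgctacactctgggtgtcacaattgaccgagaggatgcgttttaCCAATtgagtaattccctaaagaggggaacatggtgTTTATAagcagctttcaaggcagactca
Agxt: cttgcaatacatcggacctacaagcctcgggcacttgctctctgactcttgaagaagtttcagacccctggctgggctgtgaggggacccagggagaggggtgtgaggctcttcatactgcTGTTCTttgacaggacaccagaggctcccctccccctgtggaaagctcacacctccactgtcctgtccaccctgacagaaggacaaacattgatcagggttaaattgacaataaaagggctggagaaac
Cbs: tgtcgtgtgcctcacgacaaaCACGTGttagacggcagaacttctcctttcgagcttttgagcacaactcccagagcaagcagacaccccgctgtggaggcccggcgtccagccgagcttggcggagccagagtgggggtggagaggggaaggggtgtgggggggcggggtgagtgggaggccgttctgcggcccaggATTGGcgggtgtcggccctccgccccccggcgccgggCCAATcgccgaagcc
Got1: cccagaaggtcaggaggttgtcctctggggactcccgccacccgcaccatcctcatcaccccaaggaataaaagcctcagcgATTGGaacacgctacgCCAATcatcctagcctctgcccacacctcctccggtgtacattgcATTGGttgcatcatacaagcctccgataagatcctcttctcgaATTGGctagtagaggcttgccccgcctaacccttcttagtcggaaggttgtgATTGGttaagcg
No matches overlapped in these 4 windows. In Hal, a match to the TATA box lay 28 bases before the start, a CCAAT box at 64 bases and a C/EBP-type element at 150 bases. Agxt held a glucocorticoid core, Cbs an E-box and 2 CCAAT boxes, and Got1 5 CCAAT boxes. RefSeq windows were given for 31 of the 41 genes, of which 2 genes had 2 windows, making 33. The 31 include genes not measured here, such as Amt, with a CCAAT box, and Ass1, with an E-box. A CCAAT box was found in 20 of these 33 windows (60.6%), against 33.85% of all 32851 windows and 34.9% of the 7618 windows of genes measured on these arrays. The E-box was found in 2 of the 33 windows (6.06%, against 8.78% of windows of measured genes), the TATA box in 3 (9.09% against 6.81%), the C/EBP-type element in 3 (9.09% against 8.26%), the cyclic AMP core in 2 (6.06% against 26.9%) and the glucocorticoid core in 3 (9.09% against 11.4%). These are matches of letters and say nothing of whether a factor binds there.

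Most genes of amino acid breakdown had nearly the same signal on both arrays. Among the 36 measured members the median log2 ratio was 0.0089, against 0.0012 for all 7137 measured genes and 0.03 for the 1784 genes of the brightest signal band, which held 29 of the 36. The ratios ran from -0.47 (Got1) to 0.60 (Hal). The median distance from 0 was 0.09 for the members, 0.13 for all measured genes and 0.09 for the brightest band. Below 0 lay 16 of the 36 members, where 49.7% of all measured genes and 41.8% of the brightest band did.

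No member reached the submitters' size of interest, a log2 ratio above 1.5 (0.112% of measured genes) or below -1.5 (0.280%), and none lay above 1 (0.392%) or below -1 (0.631%). In the brightest band 0.112% and 0.0561% of genes passed 1.5 and -1.5, and 0.336% and 0.280% passed 1 and -1. Above 0.5 there was 1 member, Hal, against 2.63% of measured genes and 1.74% of the brightest band, and below -0.5 there was none, against 3.24% and 1.01%. Above 0.25 lay 3 members, against 10.6% of measured genes and 6.56% of the brightest band. Below -0.25 lay 2, Got1 and Asl, against 12.9% and 5.77%. By the spread between probe sets, 3 members (Hal, Agxt and Cbs) were above 0 by more than 2 pooled probe set SDs of their signal band, as were 4.13% of measured genes and 6.05% of the brightest band. By the same measure 1 member (Got1) was below 0, as were 4.93% and 5.10%. With 36 genes, counts this small and this near the background are not read as a result about the set. The values below describe single genes and pathways.

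**Figure D1:**
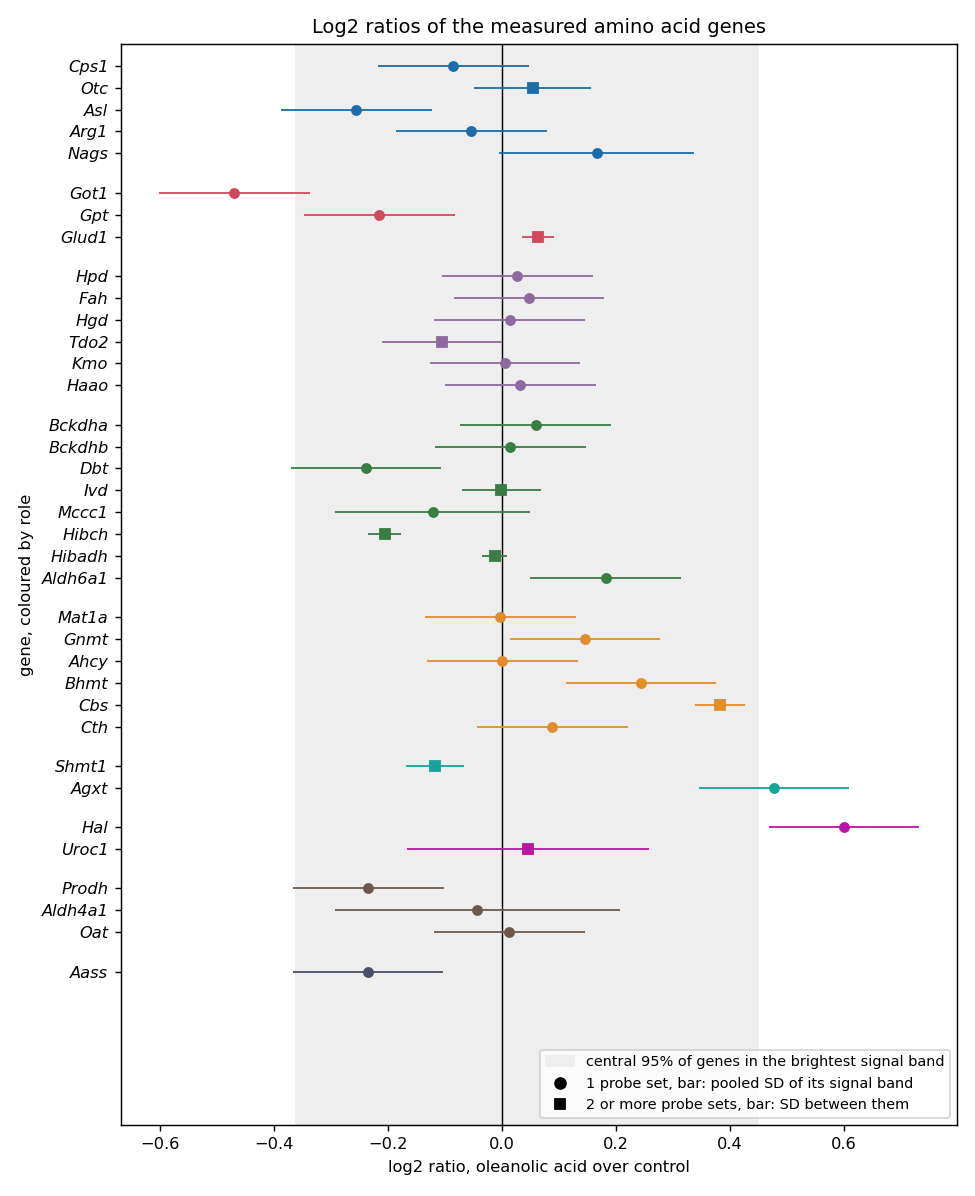
Log2 ratio (oleanolic acid over control, x axis) of the 36 measured members, one per line and coloured by pathway; circles are genes with 1 probe set, squares genes with 2 or more, bars are probe set SDs, and the grey area holds the central 95% of genes in the brightest signal band (-0.36 to 0.45). Hal (0.60), Agxt (0.48) and Got1 (-0.47) lie outside the grey area and the other members inside it.

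The 5 measured genes of the urea cycle lay between -0.26 and 0.17, with a median of -0.05. Cps1, which makes carbamoyl phosphate from ammonia and commits it to the cycle, had 8329 and 7849 units (log2 ratio -0.09, probe set SD 0.13). Nags, which makes the N-acetylglutamate that CPS1 needs for activity, had 398.8 and 447.4 units (log2 ratio 0.17, probe set SD 0.17). Neither ratio exceeds its probe set SD. Otc, which makes citrulline in the mitochondrion, had 3 probe sets with ratios of -0.01, 0.0032 and 0.17, the last from the dimmest probe set (104.9 and 118.1 units), and a mean of 0.05 ± 0.10 (SD, n = 3 probe sets). Asl, which splits argininosuccinate into arginine and fumarate, had 2270 and 1901 units. This is 1.19-fold lower in the oleanolic acid array (log2 ratio -0.26, probe set SD 0.13), the largest difference in the cycle, and it is just under 2 probe set SDs. Arg1, the arginase that releases urea, had 7413 and 7141 units (log2 ratio -0.05). Of the genes that serve the cycle, taken from a list of other genes of these pathways, Slc25a15, the mitochondrial ornithine carrier, was at -0.11 ± 0.17 (SD, n = 2 probe sets). Its bright probe set (2702 and 2724 units) was at 0.01 and its dim one (105.1 and 89.7 units) at -0.23. Slc25a13, the aspartate-glutamate carrier citrin, was at -0.12. Car5a, the mitochondrial carbonic anhydrase that supplies bicarbonate, had 661 and 542 units, 1.22-fold lower (log2 ratio -0.29, probe set SD 0.13). Of the 8 measured genes of the cycle and its supply, 6 lay below 0 and 2 above. Below 0 lay 49.7% of all measured genes and 41.8% of the brightest band. By its bright probe set alone, Slc25a15 would not be among the 6. Below -0.25 lay 2 (Asl and Car5a), against 12.9% of all measured genes and 5.77% of the brightest band. With 8 genes these counts are a description only.

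**Figure D2:**
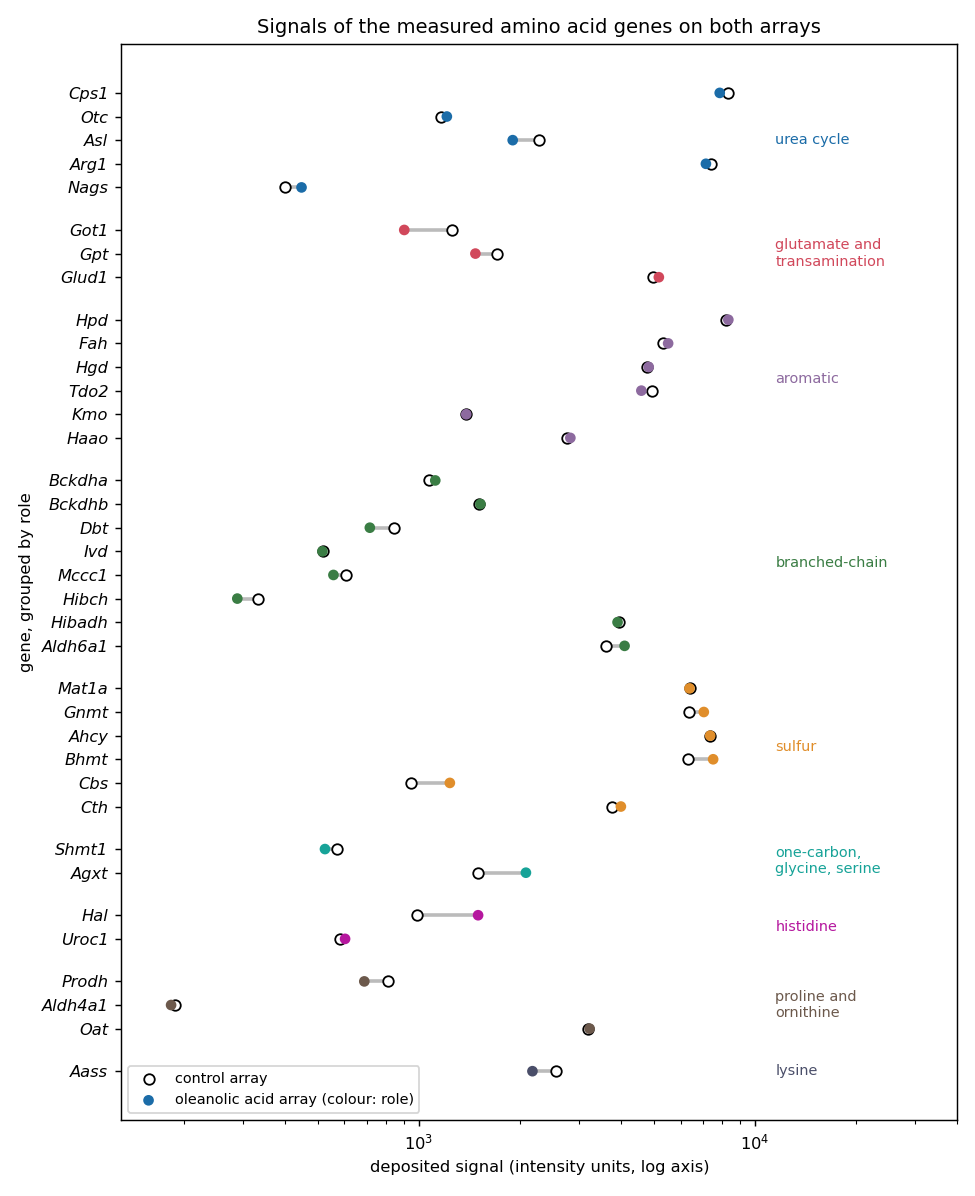
Deposited signal (intensity units, log axis) of the 36 measured members on the control array (open circles) and the oleanolic acid array (filled circles, coloured by pathway), with a grey line joining the 2 values of a gene. Got1 (1253 and 904 units), Hal (989 and 1500 units), Agxt (1495 and 2081 units) and Cbs (948 and 1236 units) have the longest lines; signals of different genes come from different probes and are not compared.

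Among the enzymes that move or release amino groups, the members for cytosolic aminotransferases had ratios below 0 and glutamate dehydrogenase did not. Got1, cytosolic aspartate aminotransferase, which serves the malate-aspartate shuttle, had 1253 and 904 units. It was 1.39-fold lower (log2 ratio -0.47, probe set SD 0.13), the lowest ratio of any member. Gpt, cytosolic alanine aminotransferase, had 1710 and 1472 units (log2 ratio -0.22, probe set SD 0.13), from a single probe set of a type that can match more than 1 transcript. Glud1, mitochondrial glutamate dehydrogenase, had 4954 and 5173 units (0.06 ± 0.03, SD, n = 2 probe sets). In the list of other pathway genes, Gpt2, the mitochondrial alanine aminotransferase, had 1843 and 1366 units (log2 ratio -0.43 ± 0.07, SD, n = 3 probe sets), and its probe sets lay at -0.47, -0.47 and -0.36. Got2, the mitochondrial aspartate aminotransferase, was at 0.05 ± 0.08 (SD, n = 2 probe sets). Abat, which removes the amino group of gamma-aminobutyrate, was at 0.20 (probe set SD 0.13) and at 0.61 with its dim probe set included. Glul, the glutamine synthetase of pericentral hepatocytes, was at 0.02 ± 0.02 (SD, n = 2 probe sets). Gpt2 and Got1 were thus lower by more than 2 pooled probe set SDs of their band, and Gpt, at -0.22, was not. The mitochondrial aspartate enzyme lay within its probe set SD of 0.

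The aromatic members lay close to 0. The 6 measured members lay between -0.11 and 0.05, with a median of 0.02, and 6 of 6 were within their probe set SD of 0 or at it. This is common at such signals: the brightest band had a median distance from 0 of 0.09, under its pooled SD of 0.13. Within 0.25 of 0 lay 1564 of its 1784 genes. Hpd, Hgd and Fah act in that order on the breakdown of tyrosine to fumarate and acetoacetate. Hpd had 8175 and 8327 units (log2 ratio 0.03), Hgd 4783 and 4826 (0.01) and Fah 5337 and 5512 (0.05). On the kynurenine route of tryptophan, the first enzyme Tdo2 had 4936 and 4589 units (-0.11 ± 0.11, SD, n = 2 probe sets), Kmo, the kynurenine monooxygenase, 1378 and 1383 units (0.0051) and Haao, which opens the ring of 3-hydroxyanthranilate, 2760 and 2821 units (0.03). Outside the members, Tat and Ddc, at the edges of these routes, lay further away. Tat, tyrosine aminotransferase, which feeds tyrosine to Hpd, had 4440 and 2725 units, 1.63-fold lower (log2 ratio -0.70, probe set SD 0.13). Ddc, aromatic amino acid decarboxylase, which makes amines such as dopamine and serotonin, had 524 and 1060 units, 2.02-fold higher (log2 ratio 1.02, probe set SD 0.13). Ido2, a tryptophan-cleaving dioxygenase gene, had low signals (109.2 and 100.5 units) at -0.12 (probe set SD 0.27). Of the 10 measured other genes of aromatic metabolism, 8 lay within 0.25 of 0, as did 5464 of all 7137 measured genes. The tyrosine route thus had a lower first enzyme and later enzymes near 0 in the same RNA.

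The branched-chain members were also close to 0, with a median of -0.0075 over 8 genes and a range from -0.24 to 0.18. The branched-chain ketoacid dehydrogenase, which commits leucine, isoleucine and valine to oxidation, showed Bckdha at 1074 and 1118 units (log2 ratio 0.06) and Bckdhb at 1509 and 1524 units (0.01), both subunits of its E1 component. Dbt, its E2 core, had 843 and 714 units (-0.24, probe set SD 0.13). On the leucine route, Ivd, isovaleryl-CoA dehydrogenase, had 517 and 516 units (-0.0016 ± 0.07, SD, n = 2 probe sets) and Mccc1, a methylcrotonyl-CoA carboxylase subunit, 606 and 557 units (-0.12, probe set SD 0.17). On the valine route, Hibch, a hydrolase of 3-hydroxyisobutyryl-CoA, had 333 and 288 units (-0.21 ± 0.03, SD, n = 2 probe sets). Its successor Hibadh had 3934 and 3898 units (-0.01 ± 0.02, SD, n = 2 probe sets) and Aldh6a1, which ends the route as methylmalonate semialdehyde dehydrogenase, 3606 and 4090 units (0.18, probe set SD 0.13). Of these 3 valine enzymes, Hibch lay below 0 and Aldh6a1 above it, neither by more than 2 pooled probe set SDs of its band. Hibadh lay within its probe set SD of 0. All 13 measured other genes of the branched-chain routes lay within 0.25 of 0, against the 5464 of 7137 over all genes given above, with Acadsb, an acyl-CoA dehydrogenase of the isoleucine route, at -0.21, Auh, a hydratase of the leucine route, at 0.21 and Bckdk, the kinase that inhibits the ketoacid dehydrogenase, at 0.17 (probe set SD 0.25).

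The sulfur amino acid members had the highest median of the pathways with more than 2 measured members, 0.12 over 6 genes, and ranged from -0.0033 to 0.38. In the methionine cycle, Mat1a, which makes S-adenosylmethionine, had 6394 and 6380 units (log2 ratio -0.0033), and Ahcy, which hydrolyses S-adenosylhomocysteine, 7349 and 7352 units (0.00043). Gnmt, glycine N-methyltransferase, which disposes of surplus methyl groups, had 6365 and 7039 units (0.15, probe set SD 0.13). Bhmt, which returns homocysteine to methionine with betaine, had 6337 and 7503 units, 1.18-fold higher (0.24, probe set SD 0.13). Cbs, which diverts homocysteine to cysteine synthesis, had 948 and 1236 units, 1.30-fold higher (0.38 ± 0.04, SD, n = 2 probe sets), and its probe sets agreed at 0.35 and 0.41. Cth, the next enzyme of that branch, had 3752 and 3988 units (0.09). Among other sulfur genes, Ethe1, a persulfide dioxygenase of mitochondrial sulfide removal, had 637 and 969 units, 1.52-fold higher (log2 ratio 0.61, probe set SD 0.13), Mpst, mercaptopyruvate sulfurtransferase, was at 0.32 (probe set SD 0.17) and Mtrr, which reactivates methionine synthase, at -0.27 (probe set SD 0.27) on low signals. Of the 17 measured sulfur genes together, 11 lay above 0 and 6 below. Above 0 were 3583 of 7137 measured genes and 1038 of the 1784 of the brightest band, which held all 6 members. Above 0.25 lay 3 and below -0.25 1, against 10.6% and 12.9% of measured genes, and these counts are close to those shares. When the ratios were centred along signal (lowess) or the arrays quantile-normalized, Mat1a and Ahcy were at -0.06 in both settings, and the median of the 6 members was 0.07 and 0.06.

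Of the glycine, serine and one-carbon members, 2 were measured and they went opposite ways. Shmt1, the cytosolic serine hydroxymethyltransferase that loads one-carbon units onto folate, had 570 and 525 units (-0.12 ± 0.05, SD, n = 4 probe sets), and its 4 probe sets all lay below 0. Agxt, alanine-glyoxylate aminotransferase, which turns glyoxylate into glycine and whose loss causes primary hyperoxaluria, had 1495 and 2081 units, 1.39-fold higher (log2 ratio 0.48, probe set SD 0.13). Grhpr, which also removes glyoxylate, was 1.22-fold higher (0.28, probe set SD 0.13), whereas Hao1, the oxidase that makes glyoxylate, had 3541 and 3531 units (-0.0041). In the glycine cleavage system, Gldc, the glycine decarboxylase, had 435 and 697 units, 1.60-fold higher (log2 ratio 0.68, probe set SD 0.17), and Gcsh, its lipoyl carrier protein, was at 0.02. Aldh1l1, which oxidizes formyl-tetrahydrofolate, stood at -0.51 ± 0.68 (SD, n = 2 probe sets), a value set by a dim probe set (71.4 and 35.8 units); its bright probe set gave 3490 and 3425 units (-0.03). Shmt2, the mitochondrial hydroxymethyltransferase, was at -0.25 ± 0.32 (SD, n = 4 probe sets). Its lowest ratios came from probe sets of low signal, -0.65 (110.0 and 70.1 units) and -0.34 (64.2 and 50.7 units). Its brightest probe set gave 1081 and 1021 units (-0.08). Without probe sets prone to cross-hybridization the value was 0.072, from a probe set with 377.5 and 396.8 units.

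Of the 4 measured genes of the histidine route, 3 lay above 0 and Uroc1 had probe sets on both sides of 0. Above 0 lay 3583 of all 7137 measured genes and 1038 of the 1784 of the brightest band. With 4 genes this count is a description only. Hal, histidine ammonia-lyase, the committing first step, had 989 and 1500 units, 1.52-fold higher (log2 ratio 0.60, probe set SD 0.13) and the highest ratio of any member, at rank 113 of 7137 genes from the top. Uroc1, urocanase, the second step, had 584 and 603 units (0.05 ± 0.21, SD, n = 2 probe sets). Its bright probe set (2319 and 2157 units) was at -0.10 and its dim one (147.1 and 168.5 units) at 0.20, so its sign is not settled. Amdhd1, the imidazolonepropionase of the third step, had 1445 and 1892 units, 1.31-fold higher (0.39, probe set SD 0.13), and Ftcd, which passes the formimino group to folate at the end, 1652 and 1910 units (0.21, probe set SD 0.13). In the proline and ornithine routes, Prodh, proline dehydrogenase, had 810 and 688 units (-0.24, probe set SD 0.13), and Aldh4a1, which completes the conversion to glutamate, 188.7 and 183.1 units (-0.04, probe set SD 0.25). Oat, ornithine aminotransferase, had 3192 and 3220 units (0.01) and Prodh2, hydroxyproline dehydrogenase, was at -0.01. Aass, the bifunctional enzyme that starts lysine breakdown, had 2562 and 2176 units, 1.18-fold lower (-0.24, probe set SD 0.13). The later lysine enzyme genes Aldh7a1 (0.07) and Gcdh (0.04) and Pipox, of the pipecolate branch (-0.09), lay within their probe set SDs of 0.

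**Figure D3:**
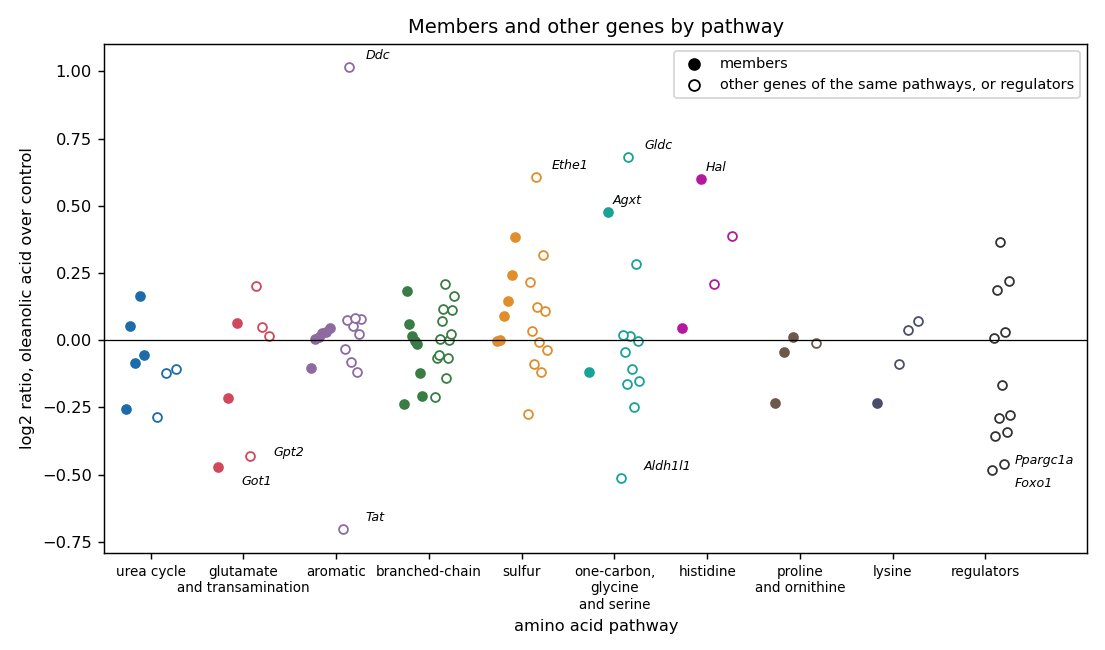
Log2 ratios (oleanolic acid over control, y axis) of members (filled) and of the other listed genes of the same pathways (open), one column per pathway, with the 12 measured regulators in the last column; each point is a gene and genes beyond 0.42 from 0 are named. The aromatic and branched-chain members lie near 0 and the histidine genes Hal and Amdhd1 above it, while Got1, Gpt2 and Tat lie below.

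Compared with each other, the urea cycle, aromatic, branched-chain, sulfur and one-carbon members had overlapping ranges, so no pathway was separated from another by these values. Their medians were -0.05, 0.02, -0.0075, 0.12 and 0.18 in that order, the last from 2 genes. The spread within a pathway was smallest for the aromatic members (SD 0.05 over 6 genes) and larger for the branched-chain (SD 0.14 over 8), sulfur (SD 0.15 over 6) and urea cycle members (SD 0.16 over 5). This order holds for the members alone: with the other listed genes of each pathway, the aromatic SD was 0.32 over 16 genes. It was then 0.13 over 21 branched-chain, 0.15 over 8 urea cycle, 0.21 over 17 sulfur and 0.31 over 13 one-carbon genes. Grouped by reaction rather than by pathway, a grouping made after the values were seen, the aminotransferase genes lay on both sides of 0. Tat, Got1, Gpt2 and Gpt lay between -0.70 and -0.22, Aadat (-0.08), Kyat3 (-0.03), Oat (0.01) and Got2 (0.05) near 0, and Abat (0.20) and Agxt (0.48) above it. Of the 58 measured other genes of these pathways, out of 78 listed, 6 were above 0.25 and 6 below -0.25, against 10.6% and 12.9% of all measured genes. Above 0.5 lay 3 (Ddc, Gldc and Ethe1) and below -0.5 lay 2 (Tat and Aldh1l1), against 2.63% and 3.24%. These counts are close to the background, and the median of the 58 was 0.0089.

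Transcription factors and hormone-response genes that act on amino acid breakdown in liver were mostly lower or near 0. Of 12 measured genes of this list, 6 lay below -0.25 and 1 above 0.25, against 12.9% and 10.6% of measured genes; with each array divided by its median the 6 became 4. Foxo1, the insulin-restrained activator of gluconeogenic genes, had 306 and 219 units (-0.48 ± 0.08, SD, n = 3 probe sets) and its coactivator gene Ppargc1a 123.7 and 90.0 units (-0.46 ± 0.15, SD, n = 5 probe sets). Tsc22d3, a glucocorticoid-induced gene, was at -0.36 ± 0.44 (SD, n = 3 probe sets), Ppara, the fasting-activated lipid regulator, at -0.34 (probe set SD 0.13), Cebpb at -0.29 ± 0.06 (SD, n = 2 probe sets) and Klf15, an activator of amino acid catabolic genes, at -0.28 (probe set SD 0.13). Nr3c1, the glucocorticoid receptor gene, was at -0.17 ± 0.09 (SD, n = 2 probe sets), while Cebpa (0.0090) and the glucagon receptor gene Gcgr (0.03) were near 0. Atf4, the amino acid stress factor, was at 0.18, Hnf4a at 0.22 ± 0.33 (SD, n = 4 probe sets) and Trib3, an ATF4 target, at 0.36 ± 0.18 (SD, n = 2 probe sets) and at 0.24 with its bright probe set alone. The values of Foxo1, Ppara and Ppargc1a were known when this list was written, so its count is not independent.

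Landmark genes of the liver lobule did not lie to one side of 0. Of 7 measured periportal landmarks, 5 lay above 0 and 2 below: the cadherin gene Cdh1 (0.58, probe set SD 0.17), Pigr (0.19 ± 0.06, SD, n = 2 probe sets), Cyp2f2 (0.10), Ctsc (0.10) and Aldh1b1 (0.0093) against Pck1, the gluconeogenic carboxykinase (-0.25, probe set SD 0.13), and Slc7a2, an arginine and lysine carrier (-0.34 ± 0.15, SD, n = 3 probe sets). All 8 measured pericentral landmarks lay within 0.25 of 0: Lgr5 (0.16), Axin2 (0.06), Cyp2c29 (0.05), Cyp2e1 (0.04), Glul (0.02), Slc1a2 (-0.03), Cyp1a2 (-0.08) and Gulo (-0.23). Of all 7137 measured genes, 3583 lay above 0 and 5464 within 0.25 of 0, so the counts of these short lists are a description only. In whole liver RNA, fewer cells of a type and less RNA per cell cannot be told apart.

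The hepatocyte markers were among the brightest probe sets of both arrays. Of 9 measured, all but Hnf4a had signals of at least 8136 units, against array medians of 61.5 and 59.3. Their ratios ran from 0.03 (Ttr) to 0.22 (Hnf4a), 9 of 9 above 0, as were 145 of the 163 genes over 5000 units. Markers of some other cells differed more, most of them at low signals. Of 9 measured exocrine pancreas genes, Prss2, Cpb1, Ctrb1, Cela3b, Clps, Cela2a, Cel and Cpa1 lay from -2.04 to -1.38 and Cela1 at -0.15. Summed signals were 1438 and 804 units, of which Cela1 gave 619 and 559. The 8 others had 18.7 (Cpb1) to 51.6 (Cela2a) units on the oleanolic acid array, under its median. Below -1 lay 0.631% of all measured genes and 26 of the 1785 genes of the dimmest signal band. The B and plasma cell genes Ighm (-1.97 ± 1.31, SD, n = 3 probe sets) and Jchain (-1.61, 133.9 and 43.8 units) were lower. The summed signals of that list were 337 and 145, with Cd79a at the floor. Among brown fat genes, Ucp1 (-2.92) and Cox8b (-2.66) were set to the floor of 10.1 units on the oleanolic acid array, so these ratios depend on the floor, while Elovl3, which liver also expresses, had 859 and 3126 units (1.86). The list's summed signals were 1053 and 3151. All 7 macrophage genes lay below 0, as did 49.7% of all measured genes, from -0.67 (Marco) to -0.06 (Vsig4), with sums of 9506 and 8712. Endothelial genes ran from -0.35 (Cdh5) to 0.12 (Clec4g), with sums of 1829 and 1805, and stellate genes from -0.27 (Col1a2) to 0.66 (Lrat), with sums of 5718 and 5730. The single measured genes of the remaining lists were Epcam of cholangiocytes (-0.94), Ms4a4b of T and NK cells (-0.85) and Alas2 of red blood cells (-0.07). Signals were low for Epcam (63.1 and 32.9 units) and Ms4a4b (69.5 and 38.5 units). Cftr, Cd4, Cd8a, Hba-a1 and Slc4a1 were at the floor on both arrays. The part of these cells in the ratios of the amino acid genes was not tested.

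The spread of ratios was narrower among the brightest genes. Among the 163 measured genes with a mean signal over 5000 units, 145 lay above 0, with a median of 0.06 and a central 95% from -0.09 to 0.30, while the 1890 genes from 500 to 5000 units had a central 95% from -0.38 to 0.46. The 9 members over 5000 units (Cps1, Arg1, Hpd, Fah, Glud1, Mat1a, Gnmt, Ahcy and Bhmt) ranged from -0.09 to 0.24, and the 24 from 500 to 5000 units from -0.47 to 0.60. With lowess centring along signal, Cps1 moved from -0.09 to -0.15 and Arg1 from -0.05 to -0.11. The branched-chain members were all below 5000 units. The part of signal strength in the ratios near 0 was not tested.

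**Figure D4:**
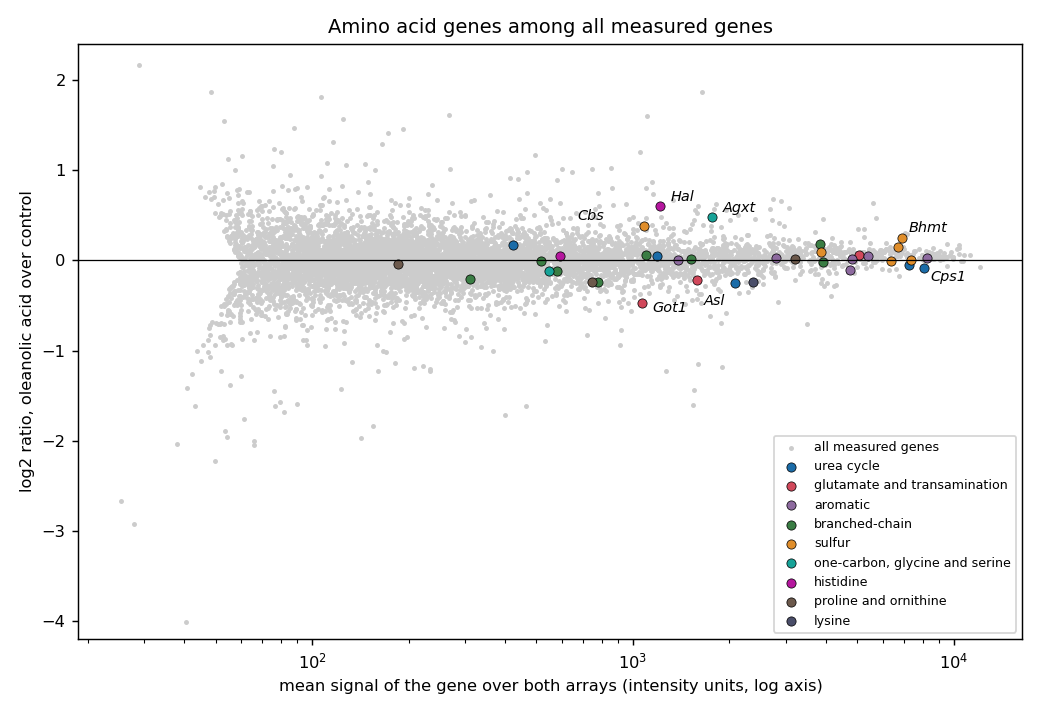
Log2 ratio (oleanolic acid over control, y axis) against the mean signal of the gene over both arrays (intensity units, log axis) for all 7137 measured genes (grey) and the 36 members (coloured by pathway). The members lie at 186 to 8251 units, within the body of the grey cloud, with Hal (0.60) and Agxt (0.48) the highest members and Got1 (-0.47) the lowest. Ratios narrow towards the right.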

How the data were processed

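Liver RNA was extracted with Tri reagent and labelled as biotinylated cRNA by the Affymetrix protocol, per the labels' protocols. The authors deposited intensities on a linear scale, 1 signal per probe set, and the submitters' processing notes name MAS5 without a version. A genome build is not given in the sources used here. Both arrays had a mean of 300.1 after trimming the lowest and highest 2%, as computed from the files, so they were compared as deposited. No detection calls were used here. The growth protocol names oleanolic acid for both samples, so groups were taken from the title and the diet label.

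Of 22690 probe sets, 64 controls were left out; 20380 carried 1 gene symbol in the platform annotation, 691 several and 1555 none, and only the first kind was used. Lower signals were set to the array's 25th percentile (10.7 for control, 10.1 for oleanolic acid) before taking log2. Ratios were averaged over the measured probe sets of a gene (11642 probe sets, 7137 genes), and signals by the geometric mean. Ratios were described beside all measured genes and beside the brightest of 4 equal bands by signal (594.6 to 12040 units). With 1 array per diet, the number of arrays limits the precision. The calculation was tested on simulated data.

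Members, gene lists, the sizes of 0.25, 0.5 and 1 and the rule of 2 probe set SDs were chosen with earlier results of these data known. By rule the text names every member, up to 3 other genes per pathway with the largest ratios and any past 0.5, the regulators and the lobule landmarks, and the lowest and highest of each cell type list and any past 1; genes outside this were chosen after their values were seen. Promoters came from RefSeq (GRCm38.p6) by symbol. Alternatives covered the floor, the filter on dim probe sets, the summary over probe sets and the scaling. Python 3.11.15, pandas 2.3.3, numpy 2.4.6 and statsmodels 0.14.6 were used.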

Additional observations from a re-analysis of the deposited data

How the results depend on the processing

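Each of 10 alternatives was run in turn: a floor at the array median, no floor above 1 unit, all probe sets of a measured gene, both signals at or above the median, the brightest probe set alone, the median over probe sets, no _x_at or _s_at probe sets, arrays divided by their median, quantile normalization and lowess centring. Of 359 values of single members, 349 stayed within their probe set SD of the main value and 10 moved further. The largest shift of any member was 0.15, that of Uroc1, which stayed within its probe set SD of 0.21. The sign differed between settings for 11 members, none of which lay beyond 0.25. The median of the 36 members ran from -0.02 to 0.06, and that of the histidine members from 0.25 to 0.40. With arrays divided by their median, which raised the median of all genes to 0.05, members below -0.25 fell from 2 to 1, members above 0.5 rose from 1 to 2 (Agxt joining Hal), other pathway genes above 0.25 rose from 6 to 10, and regulators above 0.25 from 1 to 2. With quantile normalization and with lowess centring, members below -0.25 numbered 3. Members below 0 ran from 12 to 21 over the settings, against 16 in the main one. Other pathway genes below -0.25 numbered 3 instead of 6 with the floor at the median, with both signals at the median and with division by the median. Those below -0.5 numbered 1 instead of 2 in these settings, with the brightest probe set alone and with lowess centring, where Aldh1l1 no longer passed. Regulators above 0.25 numbered 0 with the brightest probe set alone and 2 without _x_at and _s_at probe sets. Shmt2, whose brightest probe set was at -0.08, went from -0.25 to 0.072 without those probe sets. No paired analysis was possible because each diet has 1 array, and for the same reason no array could be left out.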

Other observations

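Of the 61 other pathway genes with a probe set, 3 were dim on both arrays and entered no value above. Arg2, the mitochondrial arginase, had signals of 43.9 and 24.9 units in the control array and 50.7 and 24.5 in the oleanolic acid array over its 2 probe sets. Bcat2, the mitochondrial branched-chain aminotransferase, had 24.6 and 12.2 units, and Dao, the D-amino acid oxidase, 31.9 and 4.1 units. All of these signals lie below the medians of the arrays, and the last lies below the floor.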
